A study of Mus musculus with 8 samples.

Results

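The 45 genes described here encode the cargo and membrane of the dense-core secretory granule and the machinery that docks it, primes it and fuses it with the plasma membrane in endocrine cells. They were taken by gene symbol from a fixed list, and all 45 had a row among the 23284 genes of the mouse count tables. A filter on low counts kept 44 of them for testing, and the complexin gene Cplx1 was left out by it. RNA came from pancreatic cells of mice at embryonic day 17 that were positive for a Cre-dependent Tomato reporter (RosaTomato+), given in the labels as C56BL/J. In the 4 KO libraries (replicates 8, 9, 17 and 24) the cells were Neurod1floxed/floxed and Neurog3Cre+. The 4 Het libraries (replicates 6, 7, 13 and 19) were Neurod1floxed/wt and also Neurog3Cre+, so that the Het cells too carry Cre and lose an allele of Neurod1, which encodes an E-box-binding transcription factor. Neurog3-Cre is active in the precursors of every islet cell type, so each library mixes alpha, beta, delta, epsilon and PP cells. Transcripts of acinar and duct markers were also present in every library, with values given below. The labels do not say whether replicates came from separate animals, and p-values therefore measure the spread between these libraries, which may be technical.

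Peptide hormones are packed in the trans-Golgi network together with granins, acidic proteins that condense in the granule lumen. Granules are then carried to the cell membrane with Rab GTPases on their surface, are primed by Munc13 and CAPS proteins, and fuse when calcium binds to synaptotagmins and the SNARE proteins zip together. In beta cells this last step releases insulin after glucose has raised cytosolic calcium.

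Library totals ran from 10350040 to 16080392 counts. Neurod1 fell, with 2.55, 12.9, 22.2 and 21.5 CPM (counts per 1000000 counts of the TMM-scaled library size) in KO libraries and 133 to 210.5 CPM in Het libraries; its log2 fold change was -3.40 with SE 0.52 (adjusted p = 0.0165, edgeR quasi-likelihood test). Counts are summed over the gene, so a transcript that lacks the deleted stretch would still be counted, and the adjusted p was 0.0523 to 0.0732 without KO replicate 9 or without any 1 Het library. The list of 12 endocrine markers includes Neurod1 itself and Chga, which is also among the genes described here. Of these markers, Neurod1, Ins1, Ins2 and Gcg fell and none rose. The 12 summed to 18708 to 36928 CPM in KO and 58001 to 81919 CPM in Het libraries. Ins1, Ins2 and Gcg made up most of each sum. Ghrl held 1037 to 3545 CPM in KO and 1866 to 3420 CPM in Het libraries. Ppy, Sst, Chga, Pax6 and Insm1 overlapped too. Isl1 did not, with 241 to 387 CPM in KO and 453 to 536 CPM in Het libraries. KO replicate 8 stood apart. All 12 mesenchyme markers were highest there, with a sum of 9927 CPM, where KO replicates 9, 17 and 24 summed to 389 to 550 CPM and Het libraries to 283 to 1240 CPM. Of these 12, 11 were tested and 0 were called, and Twist1 was at 0 in 4 libraries. Leukocyte markers summed to 470.3 CPM in KO replicate 8 and 254 CPM in KO replicate 9, against 16.7 to 73.4 CPM in the other 6 libraries. Y-linked transcripts summed to 427 to 497 CPM in KO replicates 8, 9 and 24 and to 414 CPM in Het replicate 7, and to at most 0.44 CPM elsewhere.

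Of the granule and exocytosis genes tested with all 8 libraries, only Syp, the gene of the vesicle membrane protein synaptophysin, changed at an adjusted p under 0.05 in edgeR. It was 1 of 44 tested members lower in KO, where 0.68% of all 14116 tested genes were called lower, and no member was called higher, where 0.34% of all genes were (1.02% in either direction). Among the members 35 had a negative and 9 a positive log2 fold change, and their median was -0.24, beside 46.6% negative and a median of 0.03 over all tested genes. At an unadjusted p under 0.05 there were 8 members lower and 1 higher, beside 5.8% and 6.35% of all genes. In 6 members every KO library was below every Het library, which held for 4.48% of all genes, and in none was every KO library above every Het library, which held for 3.55%. DESeq2 called Ptprn, Rab3d, Syp and Syt13 lower (2.11% of all genes) and no member higher (1.64%). Limma-voom with quality weights called the same 4 lower (2.15%) and Cplx2 higher (1.39%). With the mean log2 CPM of the tested mesenchyme markers as a covariate, 5 were lower, Ptprn2 added (2.5%), and Cplx2 was higher (1.61%). The authors' deposited table had Ptprn and Syp lower at an adjusted p under 0.05 (0.698% of all genes) and 0 members higher (0.283%).

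KO replicate 8 was the low library for most of these genes. For 33 of the 44 tested members it had the lowest level of all 8 libraries, and for 0 the highest. The share over all tested genes is not given here, so neither count is shown to be particular to these members. The median deviation of the members from their own median over libraries was -0.66 log2 units there, -0.21 in KO replicate 9, -0.005 in KO replicate 17, 0.09 in KO replicate 24 and 0.038 to 0.14 in the Het libraries. Together the 45 genes took 0.747, 1.03, 1.33 and 1.38% of all counts in the KO libraries and 1.29, 1.39, 1.33 and 1.44% in the Het libraries. KO replicates 17 and 24 thus overlapped the Het libraries in this share, and KO replicates 8 and 9 lay below all of them. Without KO replicate 8, edgeR called Ptprn and Syp lower and Cplx2 higher, where 1.31% of all genes were called lower and 0.678% higher (1.99% in either direction). The members' median was then -0.18, and 27 of 44 were negative, beside 50.6% of all genes. In pooled RNA, fewer cells of a type and less RNA per cell cannot be told apart. The part of the mesenchyme and leukocyte transcripts in the low values of KO replicate 8 was not tested.

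**Figure D1:**
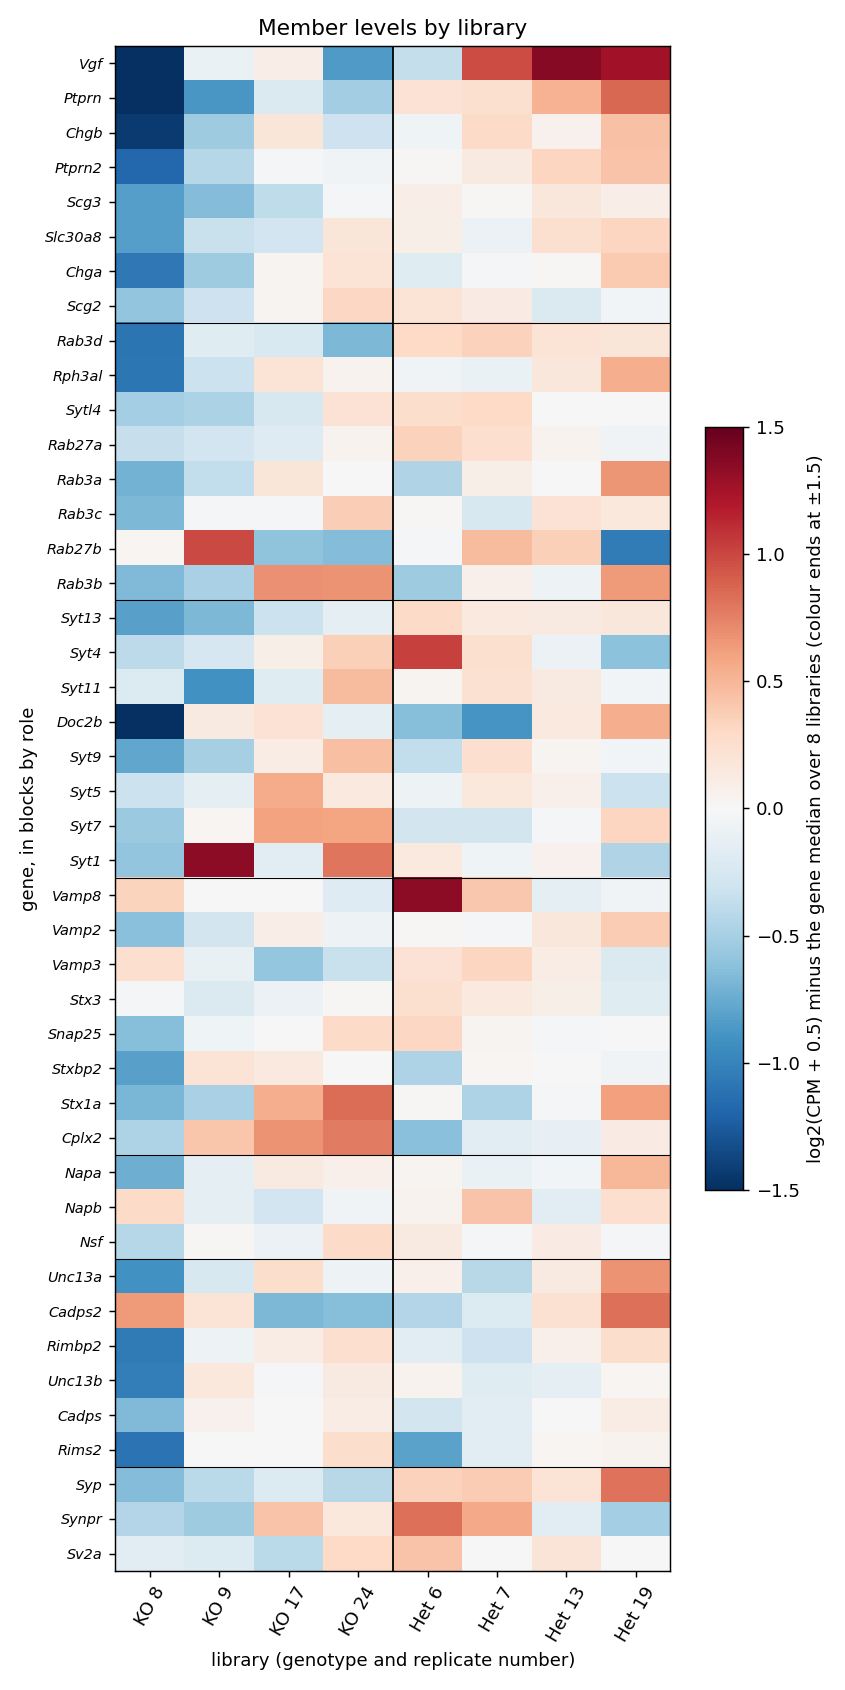
Levels of the 44 tested members in each library, as log2(CPM + 0.5) minus the gene's median over the 8 libraries, with the KO libraries left of the vertical line and genes in blocks by role. Blue marks lower and red higher values; the KO 8 column is blue for most genes, and the Syp row is blue in all 4 KO columns.

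Syp fell in KO. The KO libraries held 64.0, 76.4, 87.2 and 75.7 CPM of Syp, against 129, 132, 117 and 178 CPM in the Het libraries. The groups did not overlap, and the highest KO library reached 87.2 CPM where the lowest Het library had 117 CPM. Synaptophysin is a protein with several membrane spans that is abundant in synaptic vesicles and in the small synaptic-like vesicles of endocrine cells, and it is widely used as a marker of both. The fall was 1.83-fold (log2 fold change -0.87, SE 0.17, adjusted p = 0.0405, edgeR). KO replicate 17, the KO library without Y-linked transcripts, was below the 3 Het libraries without them, and KO replicates 8, 9 and 24 were below Het replicate 7. Each of these comparisons rests on a single KO or a single Het library. Syp lies on the X chromosome, and more KO than Het libraries held Y-linked transcripts. With a Y-linked covariate in the edgeR fit Syp was not called, with values given in the last section. The part of sex in the Syp values was not tested. The call was lost without KO replicate 9, 17 or 24 or without any 1 Het library, at adjusted p from 0.0663 to 0.120 with log2 fold changes from -0.96 to -0.74, and held without KO replicate 8 (log2 fold change -0.81, adjusted p = 0.0289). In the authors' deposited table Syp had a log2 fold change of -0.87 and an adjusted p of 0.0191.

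The other vesicle membrane genes did not pass the test. Synpr, which encodes the synaptophysin relative synaptoporin, held 6.70, 6.30, 12.7 and 10.4 CPM in KO libraries and 16.8, 14.0, 8.30 and 6.39 CPM in Het libraries, and the groups overlapped fully. For Sv2a, a glycoprotein of synaptic vesicles and granules, KO libraries ranged from 30.5 to 50.2 CPM and Het libraries from 40.5 to 54.8 CPM (log2 fold change -0.26, 95% interval -0.70 to 0.17). A difference between the Syp change and that of either gene was not tested.

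Promoter sequence is shown for Syp, the member that passed the test, for Ptprn and Cplx2, the members called without KO replicate 8, and for Sv2b and Rims3, genes outside the 45 that fell and rose. Sytl2, also outside the 45, fell too (values below), and no window is shown for it. The windows hold 250 bases before and 50 after the annotated start, come from RefSeq on GRCm38.p6 and read 5′ to 3′ on the gene's strand. The deposited counts were made on mm9, and only the gene symbols link them to these windows. They lie at chrX:7638330-7638629 on the plus strand (Syp), chr1:75264159-75264458 on the minus strand (Ptprn, the first of its 2 windows), chr13:54302306-54302605 on the plus strand (Cplx2), chr7:75309213-75309512 on the minus strand (Sv2b, the first of its 4 windows) and chr4:120854549-120854848 on the plus strand (Rims3). Capitals mark the E-box letters CAGATG (or CATCTG, its reverse complement) and CAGCTG, which is its own reverse complement. E-boxes are the sites that basic helix-loop-helix factors can bind.
Syp: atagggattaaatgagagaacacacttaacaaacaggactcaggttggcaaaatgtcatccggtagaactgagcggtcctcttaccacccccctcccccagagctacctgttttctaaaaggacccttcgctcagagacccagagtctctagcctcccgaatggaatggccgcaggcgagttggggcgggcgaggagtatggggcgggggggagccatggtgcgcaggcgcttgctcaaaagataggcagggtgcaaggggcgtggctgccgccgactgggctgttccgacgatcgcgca
Ptprn: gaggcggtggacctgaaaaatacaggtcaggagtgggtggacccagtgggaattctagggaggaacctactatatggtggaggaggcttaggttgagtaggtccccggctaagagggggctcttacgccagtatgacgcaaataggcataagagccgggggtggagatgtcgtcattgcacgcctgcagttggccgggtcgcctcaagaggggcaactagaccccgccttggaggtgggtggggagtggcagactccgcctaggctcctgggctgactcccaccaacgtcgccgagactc
Cplx2: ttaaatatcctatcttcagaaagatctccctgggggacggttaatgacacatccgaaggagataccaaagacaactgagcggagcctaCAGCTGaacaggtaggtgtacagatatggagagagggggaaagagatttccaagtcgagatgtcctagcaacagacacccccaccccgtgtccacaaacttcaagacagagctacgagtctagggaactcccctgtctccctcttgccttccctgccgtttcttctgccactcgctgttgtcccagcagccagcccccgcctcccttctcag
Sv2b: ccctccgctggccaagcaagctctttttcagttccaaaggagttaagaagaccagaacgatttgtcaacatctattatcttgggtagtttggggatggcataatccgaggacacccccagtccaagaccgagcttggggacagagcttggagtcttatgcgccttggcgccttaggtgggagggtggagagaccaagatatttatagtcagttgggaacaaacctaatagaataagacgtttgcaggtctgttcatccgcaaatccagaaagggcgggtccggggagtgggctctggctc
Rims3: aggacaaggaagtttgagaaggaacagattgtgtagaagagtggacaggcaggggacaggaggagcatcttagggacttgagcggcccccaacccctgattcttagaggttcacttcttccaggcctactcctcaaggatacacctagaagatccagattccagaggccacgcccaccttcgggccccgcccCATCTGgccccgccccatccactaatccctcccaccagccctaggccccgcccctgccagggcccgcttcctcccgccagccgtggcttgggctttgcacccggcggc
The Cplx2 window held a CAGCTG whose first base is 162 bases before the start, and the Rims3 window a CATCTG that begins 58 bases before it. Neither set of letters was in the Syp window, in either Ptprn window, in the 4 Sv2b windows or in the window of Rab3d. Over the 33 members with a window, CAGATG was in 3 of 38 windows (7.89%), beside 17.2% of all 32851 windows, and CAGCTG was in 12 (31.6%), beside 16.3% of all windows. A match of 6 letters is a description of the sequence and shows no binding.

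Among the 8 genes of granule cargo and granule membrane edgeR called none with all 8 libraries (0.68% of all genes were called lower) and DESeq2 and limma-voom called Ptprn. All 8 lay below 0 on the log2 scale, beside 46.6% of all genes, and their median was -0.56. Without KO replicate 8, 7 lay below 0, beside 50.6% of all genes, and the median was -0.39. Ptprn was the member of the class with the smallest p. It encodes IA-2, a membrane protein of dense-core granules that resembles a tyrosine phosphatase and is an autoantigen in type 1 diabetes. Its KO libraries held 22.7, 42.2, 67.3 and 54.2 CPM, against 90.3, 92.4, 112 and 142 CPM in the Het libraries. The groups did not overlap, and edgeR estimated -1.23 on the log2 scale (SE 0.30, adjusted p = 0.102). Without KO replicate 8 it fell, with a log2 fold change of -1.01 and an adjusted p of 0.0296. The authors' deposited table gave Ptprn an adjusted p of 0.00497, DESeq2 gave 0.00257 and limma-voom with quality weights 0.00969.

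Ptprn2 encodes phogrin, the closest relative of IA-2. It held 320.3, 540.0, 716 and 699 CPM in KO libraries and 732, 793, 908 and 972 CPM in Het libraries. The groups lay next to each other without overlap (log2 fold change -0.58, SE 0.23, adjusted p = 0.353), and with the mesenchyme covariate the adjusted p was 0.0394. Counts of the pair within a library do not depend on scaling, and the log2 ratio of Ptprn to Ptprn2 was -3.82, -3.68, -3.41 and -3.69 in KO libraries and -3.02, -3.10, -3.02 and -2.78 in Het libraries. Every KO library was below every Het library in this ratio. The pair was chosen after its values were seen and is given with no test.

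The granins differed in how far KO and Het libraries separated. Scg3 encodes secretogranin III, which binds chromogranin A and the granule membrane, and held 661, 746, 900.5 and 1157 CPM in KO libraries and 1258, 1195, 1319.6 and 1263 CPM in Het libraries. All 4 KO libraries were below the Het libraries, KO replicate 24 narrowly (log2 fold change -0.54, SE 0.18, adjusted p = 0.230). Chgb, the chromogranin B gene, held 874, 1627, 2685 and 1894 CPM in KO libraries and 2250.4, 2873, 2473 and 3186 CPM in Het libraries, and KO replicate 17 lay within the Het range (-0.61, SE 0.29, adjusted p = 0.432). Chga, the chromogranin A gene and a general endocrine marker, held 576, 834, 1239 and 1397 CPM in KO libraries and 1069, 1194, 1222 and 1581 CPM in Het libraries. Only KO replicates 8 and 9 were below the lowest Het library for Chga (log2 fold change -0.32, 95% interval -0.90 to 0.25). Scg2, the secretogranin II gene, held 1135, 1381, 1760.1 and 2119.6 CPM in KO libraries and 1972, 1859, 1471 and 1663 CPM in Het libraries. The Scg2 groups overlapped, KO replicate 24 was the highest of all 8 libraries, and the log2 fold change was -0.12 with all libraries and 0.00 without KO replicate 8.

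Vgf, the gene of a granin-like precursor of secreted peptides, had the fewest counts of the class, with 7, 29, 36 and 13 counts in KO libraries and 24, 88, 82 and 66 counts in Het libraries. In CPM these were 0.510, 2.31, 2.71 and 1.17 in KO libraries and 1.85, 5.44, 7.24 and 6.69 in Het libraries, so that Het replicate 6 lay among the KO libraries. The log2 fold change of Vgf was -1.65 with a wide error (SE 0.64, adjusted p = 0.336). Slc30a8 encodes the zinc transporter ZnT8, which loads the granules of beta cells with zinc for insulin storage. Its KO libraries held 375, 526, 543 and 752 CPM and its Het libraries 702, 626, 784 and 828 CPM. KO replicate 24 lay within the Het range of Slc30a8, and the other KO libraries were below it (log2 fold change -0.42, 95% interval -0.87 to 0.02, adjusted p = 0.434).

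**Figure D2:**
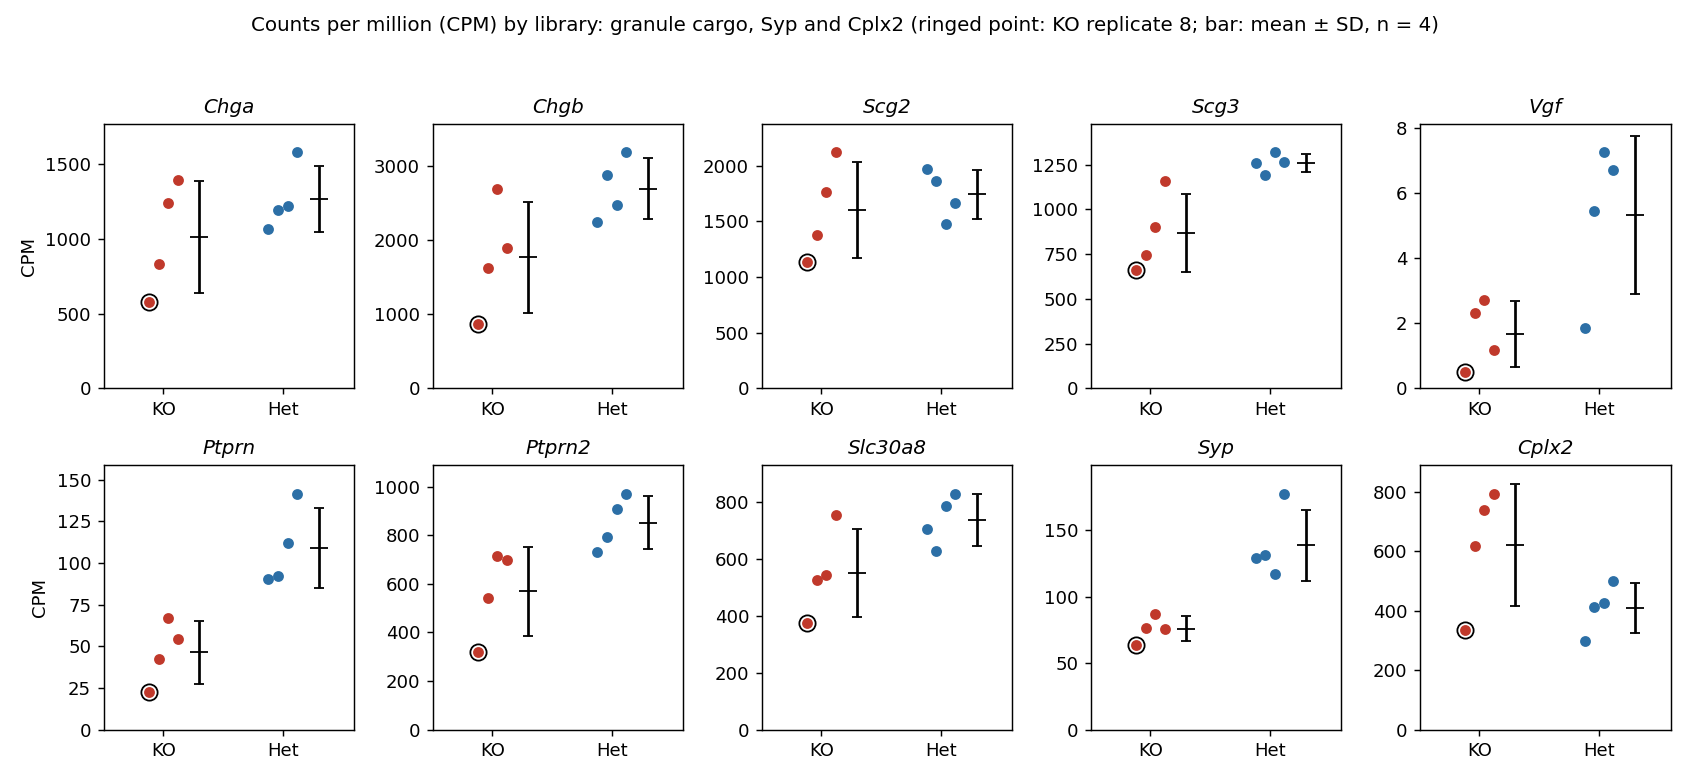
CPM in each library for the 8 granule genes, Syp and Cplx2, with KO libraries left and Het libraries right, the mean ± SD (n = 4) as a bar and KO replicate 8 ringed. The groups are apart for Syp, Ptprn, Ptprn2 and Scg3, and the Cplx2 points of KO replicates 9, 17 and 24 lie above all Het points.

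Of the 8 Rab and Rab-effector genes edgeR called none, beside 1.02% of all genes. On the log2 scale 6 lay below 0, beside 46.6% of all genes, with a class median of -0.33. Without KO replicate 8, 5 lay below 0 and the median was -0.18. Rab3d, a small GTPase of secretory granules that is prominent in exocrine cells, held 42.0, 79.5, 77.4 and 56.7 CPM in KO libraries and 111, 115, 104 and 103 CPM in Het libraries. The groups did not overlap and the Het libraries were close together (log2 fold change -0.76, SE 0.20, adjusted p = 0.128). DESeq2 gave Rab3d an adjusted p of 0.0206 and limma-voom with quality weights 0.0298. Acinar markers summed to 13694 to 46780 CPM in KO libraries and 10459 to 32693 CPM in Het libraries, overlapping ranges. With an acinar covariate in the edgeR fit, the log2 fold change of Rab3d was -0.79 (adjusted p = 0.147). The cause of the Rab3d values was not tested.

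Rab27a, the GTPase that docks granules through its effectors, held 154, 160.2, 171 and 202 CPM in KO libraries and 248, 233, 202 and 189 CPM in Het libraries. KO replicate 24 was above the lowest Het library (log2 fold change -0.34, SE 0.14, adjusted p = 0.361). Sytl4 encodes granuphilin, which ties Rab27a on the granule to syntaxin at the membrane, and took the most counts of the class. It held 474, 485, 573 and 787 CPM in KO libraries and 808, 829.9, 675 and 675 CPM in Het libraries, and KO replicate 24 lay within the Het range (log2 fold change -0.36, 95% interval -0.76 to 0.03). The remaining 5 did not pass. Rab3a, the main Rab3 form of neurons, averaged 28.2 ± 7.61 CPM in KO and 35.3 ± 11.6 CPM in Het libraries (SD, n = 4 each), and the effector gene Rph3al (Noc2) 28.8 ± 10.2 CPM in KO and 37.4 ± 8.08 CPM in Het libraries. Rab3b averaged 62.7 ± 29.9 CPM in KO and 58.4 ± 20.0 CPM in Het libraries, and Rab3c 52.7 ± 14.9 CPM in KO and 56.1 ± 7.62 CPM in Het libraries. Rab27b was low at 3.50 to 11.97 CPM in KO libraries and 2.53 to 8.22 CPM in Het libraries, and its 95% interval on the log2 scale ran from -1.10 to 1.22.

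Of the 8 synaptotagmin and Doc2 genes, listed as calcium sensors, edgeR called none, beside 1.02% of all genes. The log2 fold change was negative in 5, beside 46.6% of all genes, and the class median was -0.14. Without KO replicate 8 only 3 of the 8 were negative and the median was 0.12. Syt13 and Syt7, the genes with the most counts here, lay on opposite sides of 0. Syt13 encodes an atypical synaptotagmin that does not bind calcium, and held 486, 539, 689 and 781 CPM in KO libraries and 1043, 948, 943 and 964 CPM in Het libraries. The groups did not overlap (log2 fold change -0.64, SE 0.16, adjusted p = 0.119). DESeq2 gave Syt13 an adjusted p of 0.0100 and limma-voom with quality weights 0.0403, and in the authors' deposited table it was 0.0504. Syt7, a high-affinity calcium sensor of islet granule exocytosis, held 225, 339, 503 and 502 CPM in KO libraries and 274, 275, 324 and 415 CPM in Het libraries. KO replicates 17 and 24 were above every Het library and KO replicate 8 below every one (log2 fold change 0.28, 95% interval -0.28 to 0.85, adjusted p = 0.692). Within libraries the log2 ratio of Syt7 to Syt13 counts was -1.11, -0.67, -0.45 and -0.64 in KO libraries and -1.93, -1.79, -1.54 and -1.21 in Het libraries. Every KO library was thus above every Het library in this ratio, KO replicate 8 included. The pair was chosen after its values were seen, and the ratio is given with no test.

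The other genes of this class had few counts or groups that overlapped. Syt1, the fast sensor of neurons, ranged from 4.30 to 17.7 CPM in KO and from 4.77 to 7.49 CPM in Het libraries, with KO replicate 9 the highest (log2 fold change 0.63, SE 0.46, adjusted p = 0.617). Doc2b, a high-affinity sensor with C2 domains, held 2.91, 28.7, 30.5 and 23.9 CPM in KO libraries and 16.6, 13.9, 29.1 and 38.5 CPM in Het libraries. KO replicate 8 was far below the other 7 libraries for Doc2b, and the log2 fold change was -0.19 with it and 0.17 without it. Syt9, a close relative of Syt1, averaged 27.2 ± 10.6 CPM in KO and 29.0 ± 5.10 CPM in Het libraries (SD, n = 4 each). Syt5 averaged 15.7 ± 4.43 CPM in KO and 14.4 ± 2.11 CPM in Het libraries, Syt4 16.7 ± 4.07 CPM in KO and 20.5 ± 10.4 CPM in Het libraries, and Syt11 21.2 ± 8.30 CPM in KO and 24.7 ± 2.02 CPM in Het libraries. Adjusted p for Syt4, Syt5, Syt9 and Syt11 was 0.783 or more.

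Of 9 genes of SNARE proteins and their partners, 8 were tested, and edgeR called none with all 8 libraries, beside 1.02% of all genes. The log2 fold change was negative in 5, beside 46.6% of all genes, and the class median was -0.16. Without KO replicate 8 the median was -0.10, 5 were again negative and Cplx2 was called higher. Snap25, a SNARE protein of the plasma membrane, held 142, 211, 220.3 and 270.3 CPM in KO libraries and 273, 227, 217 and 222 CPM in Het libraries. The Snap25 groups overlapped with a log2 fold change of -0.15 (95% interval -0.57 to 0.26) and of -0.01 without KO replicate 8. Its partners in the core complex did not pass the test. Stx1a averaged 15.8 ± 8.07 CPM in KO and 14.7 ± 4.84 CPM in Het libraries, and Vamp2 97.6 ± 20.6 CPM in KO and 124 ± 16.3 CPM in Het libraries (SD, n = 4 each; 95% intervals on the log2 scale -0.77 to 0.99 and -0.73 to 0.04).

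Cplx2 encodes a complexin, a small protein that binds the assembled SNARE complex and controls the last step of fusion. It held 336, 617, 738 and 794 CPM in KO libraries and 299, 411, 425 and 501 CPM in Het libraries. KO replicates 9, 17 and 24 were above every Het library, and KO replicate 8 was between Het replicates 6 and 7. With all libraries the log2 fold change was 0.60 (SE 0.26, adjusted p = 0.381, edgeR). Limma-voom with quality weights called it at 0.715 (adjusted p = 0.0281) and DESeq2 did not (adjusted p = 0.213). Without KO replicate 8 it rose, with a log2 fold change of 0.80 and an adjusted p of 0.0369. The log2 ratio of Cplx2 to Snap25 counts was 1.25, 1.55, 1.74 and 1.55 in KO libraries and 0.13, 0.86, 0.97 and 1.18 in Het libraries, with no overlap, and this pair too was chosen after its values were seen. Cplx1, the relative that predominates in many neurons, had 0, 0, 1 and 0 counts in KO libraries and 2, 14, 4 and 4 counts in Het libraries. The ratio of the summed counts per library total was 0.0429 KO over Het, with an exact 95% interval of 0.00104 to 0.263 that covers counting error only. Het replicate 7 alone held 14 of the 24 Het counts.

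Vamp3, a vesicle SNARE of most tissues, averaged 233 ± 57.8 CPM in KO and 283 ± 43.4 CPM in Het libraries, and Vamp8, which also serves exocrine granules, 84.5 ± 13.4 CPM in KO and 117 ± 62.1 CPM in Het libraries (SD, n = 4 each). The Vamp8 spread in Het came from replicate 6 at 207 CPM, where Het replicates 7, 13 and 19 held 73.7 to 108 CPM. Stx3, a syntaxin of granules and apical membranes, averaged 50.4 ± 3.53 CPM in KO and 56.2 ± 6.90 CPM in Het libraries. Its 95% interval on the log2 scale, -0.49 to 0.18, was 1 of 3, with those of Nsf and Cadps, that lay wholly within 0.5 of 0. Stxbp2 (Munc18-2), which holds syntaxins ready for fusion, averaged 85.7 ± 24.01 CPM in KO and 82.7 ± 12.3 CPM in Het libraries.

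**Figure D3:**
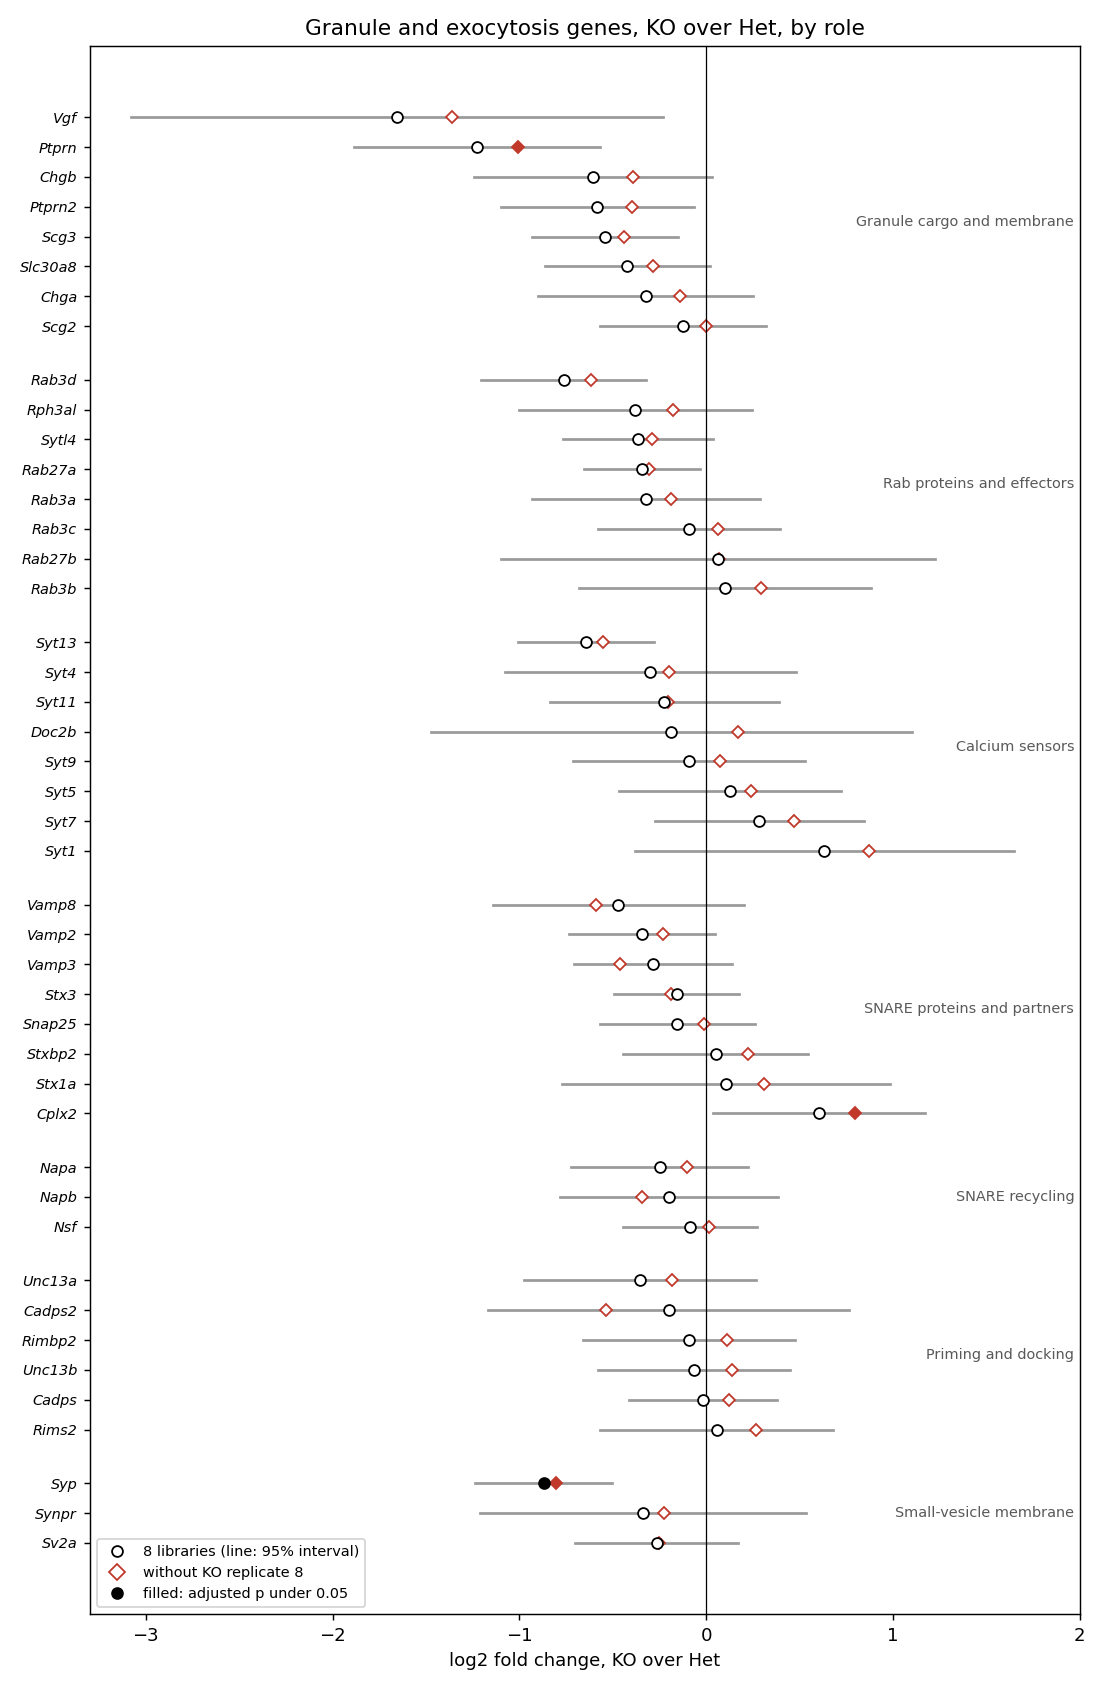
Log2 fold change of each tested member, KO over Het, in rows by role, with all 8 libraries (circles, line for the 95% interval) and without KO replicate 8 (diamonds). Filled symbols passed an adjusted p of 0.05: Syp in both fits, and Ptprn and Cplx2 without KO replicate 8; most diamonds lie right of their circles.

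None of the 3 genes that take SNARE complexes apart passed the test, which 1.02% of all genes passed. Nsf, the ATPase of this step, held 64.5, 87.5, 81.6 and 106 CPM in KO libraries and 94.8, 85.9, 94.5 and 85.3 CPM in Het libraries. Its log2 fold change was -0.09 (95% interval -0.45 to 0.27) with all libraries and 0.01 without KO replicate 8. Napa, the alpha-SNAP adaptor that brings Nsf to the complex, held 50.6, 76.4, 92.5 and 88.6 CPM in KO libraries and 86.4, 78.5, 81.9 and 119 CPM in Het libraries. The Napa groups overlapped (log2 fold change -0.25, SE 0.21, adjusted p = 0.681). Napb, the beta-SNAP gene of neural tissue, averaged 11.97 ± 2.20 CPM in KO and 13.8 ± 2.51 CPM in Het libraries (SD, n = 4 each).

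Priming genes did not pass either (1.02% of all genes did). The class median was -0.08, with 5 of 6 negative, beside 46.6% of all genes. Without KO replicate 8 it was 0.12, with 2 of 6 negative, beside 50.6% of all genes. Cadps encodes CAPS, which prepares dense-core granules for fusion, and had the most counts of the class. It held 188, 309.7, 295 and 318 CPM in KO libraries and 245, 264, 297 and 319 CPM in Het libraries. Apart from KO replicate 8 the KO values lay within the Het range, and the log2 fold change of -0.02 (95% interval -0.41 to 0.38) became 0.04 when libraries were scaled by total counts. Unc13a, a Munc13 primer, had the smallest p of the class. It held 29.7, 47.4, 67.4 and 53.5 CPM in KO libraries and 59.2, 42.1, 61.8 and 90.3 CPM in Het libraries, which overlapped (log2 fold change -0.35, SE 0.28, adjusted p = 0.654). Its relative Unc13b averaged 188 ± 60.5 CPM in KO and 196 ± 16.6 CPM in Het libraries (SD, n = 4 each). Rims2, a scaffold that links Rab3 to calcium channels, averaged 156 ± 54.2 CPM in KO and 150.3 ± 36.8 CPM in Het libraries, and its binding partner Rimbp2 129 ± 43.6 CPM in KO and 137 ± 24.4 CPM in Het libraries. Cadps2, the second CAPS gene, ranged from 4.98 to 13.1 CPM in KO and from 5.95 to 15.0 CPM in Het libraries.

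**Figure D4:**
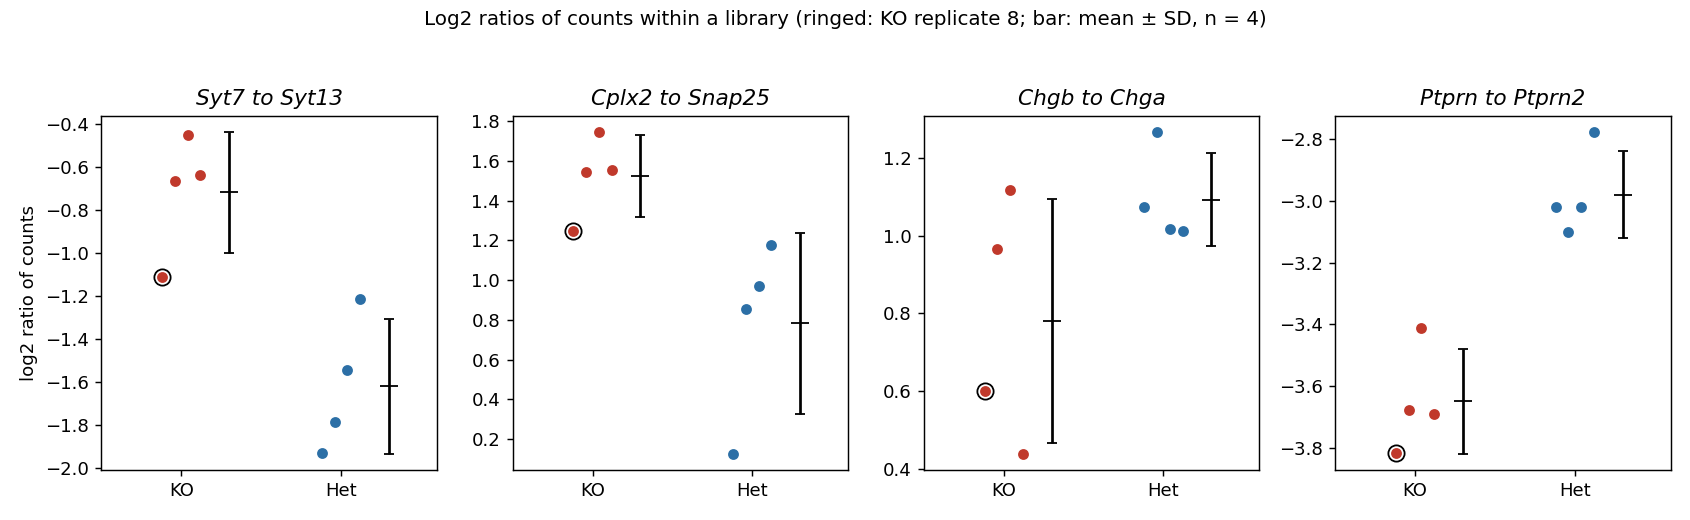
Log2 ratio of the counts of a gene pair within each library, for Syt7 to Syt13, Cplx2 to Snap25, Chgb to Chga and Ptprn to Ptprn2, with KO libraries left, Het libraries right, the mean ± SD (n = 4) as a bar and KO replicate 8 ringed. KO libraries lie above Het libraries for the first and second pair and below them for the last, and the groups overlap for Chgb to Chga.

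Other exocytosis genes, 82 synaptotagmins, SNARE proteins, Rab effectors, exocyst subunits and vesicle proteins outside the 45, were taken from a written list. Of the 69 tested, 2 fell and 1 rose (0.68% and 0.34% of all genes). The log2 fold change was negative in 33, beside 46.6% of all genes, and its median was 0.01. In 10 of the 69 every KO library was below every Het library, and in 1 above, beside 4.48% and 3.55% of all genes. A list of prohormone processing genes, which shares Scg5 and Pcsk1n with the other exocytosis genes, had 14 tested members. Of these 10 were negative, beside 46.6% of all genes, with a median of -0.22. Without KO replicate 8, 8 of the 14 were negative, beside 50.6% of all genes, with a median of -0.19. Cpe, the gene of the granule enzyme carboxypeptidase E, was the 1 processing gene that fell with all 8 libraries (log2 fold change -1.60, adjusted p = 0.00795, edgeR), and 0 rose. Over all genes 0.68% fell and 0.34% rose. Each of the 3 called genes has a relative among the members. Sytl2, which encodes a Rab27 effector of the granuphilin family, held 6.78, 5.34, 3.47 and 4.94 CPM in KO libraries and 14.2, 24.05, 14.2 and 24.4 CPM in Het libraries. The groups did not overlap, and the fall was 3.74-fold (log2 fold change -1.90, SE 0.33, adjusted p = 0.0310). Sv2b, a relative of Sv2a, held 3.06, 5.26, 7.09 and 4.49 CPM in KO libraries and 11.4, 21.4, 24.1 and 14.8 CPM in Het libraries. It fell 3.60-fold (log2 fold change -1.85, SE 0.37, adjusted p = 0.0442), and no KO library reached the lowest Het library. Rims3, a short RIM protein without the Rab-binding part of Rims2, held 7.80, 17.2, 15.5 and 11.6 CPM in KO libraries and 3.78, 3.83, 2.91 and 4.36 CPM in Het libraries. It rose 3.49-fold (log2 fold change 1.8, SE 0.35, adjusted p = 0.0440), and KO replicate 8 was the lowest KO library but above every Het library.

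All 3 kept their calls without KO replicate 8, at adjusted p of 0.0100 for Sytl2, 0.0295 for Sv2b and 0.0112 for Rims3. Each lost its call without any other single library, with adjusted p reaching 0.101 for Sytl2, 0.179 for Sv2b and 0.164 for Rims3, and every sign stayed. Sv2b also lost its call when libraries were scaled by total counts (adjusted p = 0.0553). Whether Sv2b changed more than Sv2a, Sytl2 more than Sytl4 or Rims3 more than Rims2 was not tested.

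**Figure D5:**
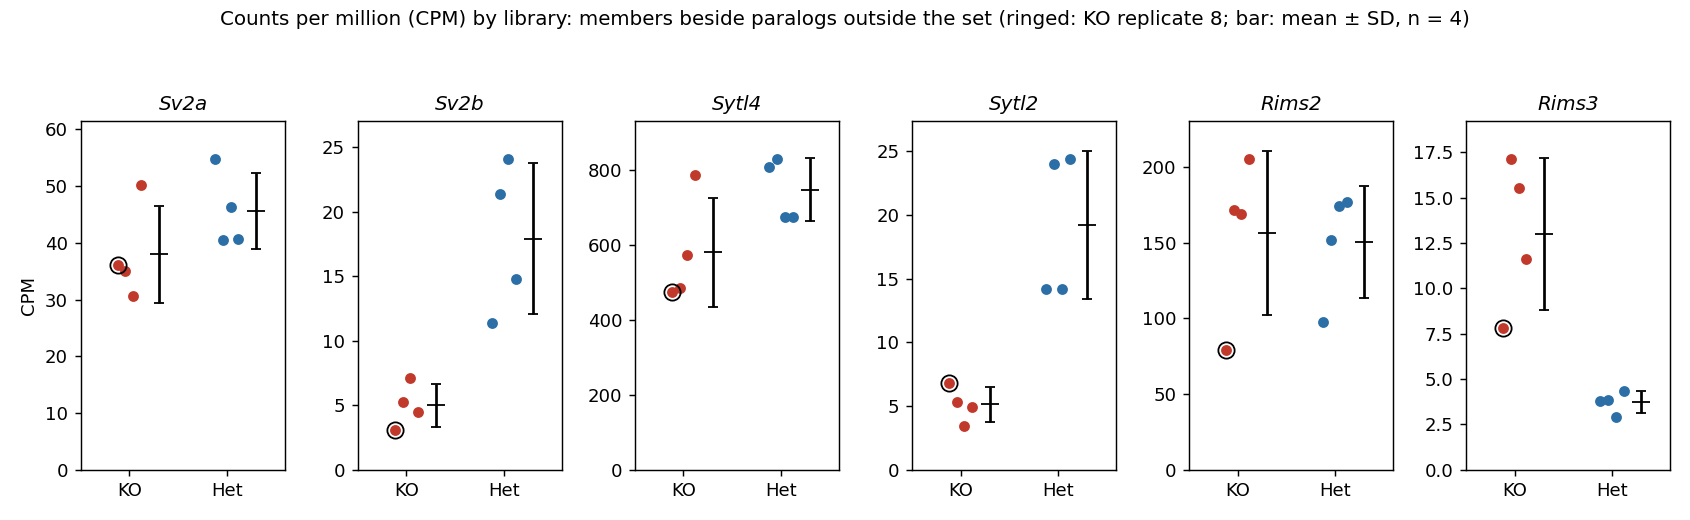
CPM in each library for Sv2a, Sytl4 and Rims2, which are members, beside Sv2b, Sytl2 and Rims3, which are not, with KO libraries left, Het libraries right, the mean ± SD (n = 4) as a bar and KO replicate 8 ringed. The groups overlap for the members Sv2a, Sytl4 and Rims2 and are apart for Sv2b, Sytl2 and Rims3.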

How the data were processed

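RNA from sorted cells of each of the 8 libraries (2.315 ng of RNA) was amplified as cDNA with a NuGEN Ovation kit and sequenced as single-end reads of 100 bases, per the labels' protocols. That kit does not keep strand, so reads of overlapping antisense genes cannot be told apart, and amplified copies count as reads. The deposited counts are whole reads per gene symbol, 1 file per library. The submitters' processing notes name mm9 and the tools bcl2fastq (version 1.8.4), TopHat2 (version 2.1.0), Cufflinks (version 2.0.2) and DESeq. Which tool counted reads, and over which annotation, is not given in the sources used here. In addition, the authors' deposited table holds a mean signal per genotype (a mean of normalized counts), the fold (ratio of KO to Het), its log2 value, and p-values with adjusted p-values, per the file headers. Its KO means could be rebuilt from the counts and DESeq-type size factors, with a largest relative deviation of 4.92e-15.

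Of 23284 genes, 14116 passed edgeR's filterByExpr (minimum count 10, minimum total 15). KO was compared with Het by the quasi-likelihood F test of edgeR 4.0.16 (R 4.3.3) after TMM scaling, two-sided, with no covariate and Benjamini-Hochberg adjustment over all tested genes; intervals are 95% intervals of that fit. Library totals of 10350040 to 16080392 make 3 counts equal to at most 0.304 CPM. Alternatives used DESeq2 1.42.0, limma 3.58.1, other scalings and filters, covariates and libraries left out. On simulated counts for 13899 genes of the KO against Het design, 21 of 100 genes changed 2-fold and 69 of 100 changed 4-fold were called, with 5 false calls. The most similar pair of libraries had a chi-square per degree of freedom of 18.2, so none was counted as a repeat deposit.

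The members, the lists and the tests were chosen with earlier results of these data known. Values in every library were to be given for members called at an adjusted or unadjusted p under 0.05 and, in each role, for those with the highest mean CPM and the smallest p. The other members with values in every library, and the ratios, were chosen after their values were seen. Markers of duct, endothelial, erythroid and Schwann or neural-crest cells summed to 572 to 716, 8.30 to 29.1, 7.10 to 10.9 and 16.2 to 28.4 CPM in KO libraries and to 521 to 666, 8.74 to 16.4, 6.41 to 15.3 and 16.2 to 47.8 CPM in Het libraries. Of 7 duct markers tested 1 was called, and of 6 endothelial markers tested 1 was. The duct marker Cftr held 14.5 to 34.0 CPM in KO and 2.55 to 8.53 CPM in Het libraries. The endothelial marker Cldn5 held 2.62 to 3.75 CPM in KO and 0.08 to 0.37 CPM in Het libraries. For the other duct and endothelial markers KO and Het libraries overlapped. Promoter windows matched 33 of the 45 members.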

Additional observations from a re-analysis of the deposited data

Results flagged for a closer look

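In 7 of 128 groups of 4 libraries the highest or lowest library lay farther from the others than Dixon's limit of 0.829 (gap over range), where chance gives about 1 in 20. None of the 88 groups of the tested members was among them on the CPM scale. Cplx1 in KO had a gap over range of 1, from its single count in replicate 17. Neurod1 in Het had 0.896, with replicate 19 at 210.5 CPM and the others at 133 to 141 CPM. The mesenchyme marker sum in KO had 0.983 (replicate 8), the acinar marker sum in KO 0.84 (replicate 9, 46780 CPM against 13694 to 18994 CPM) and the leukocyte marker sum in Het 0.864 (replicate 7, 73.4 CPM against 22.2 to 29.2 CPM). The Y-linked sum had 0.859 in KO, where replicate 17 was low, and 1 in Het, where replicate 7 was high. On the log2(CPM + 0.5) scale, added after the data were seen, 4 of 90 groups were past the limit, with 3 of the 88 groups of the tested members among them. This too is beside the 1 in 20 that chance gives. KO replicate 8 was past the limit on the low side for Doc2b (0.892), Unc13b (0.837) and Cadps (0.855), and Cplx1 in KO was again at 1.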

How the results depend on the processing

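No paired analysis was possible because the KO and Het libraries share no replicate numbers. Calls of members lower in KO numbered 4 in DESeq2 and 4 in limma-voom with quality weights (Ptprn, Rab3d, Syp and Syt13 by each; 2.11% and 2.15% of all genes), 5 with a mesenchyme covariate (also Ptprn2; 2.5%), 0 against a fold of 1.5, 0 with an acinar and 0 with a Y-linked covariate, and 0 to 2 with a library left out. Calls of members higher in KO numbered 1, Cplx2, by limma-voom with quality weights and 1 with the mesenchyme covariate (1.39% and 1.61% of all genes), and 0 to 1 with a library left out. Over all genes, 293, 304, 353, 20, 55 and 22 were lower and 227, 196, 227, 6, 21 and 6 higher (DESeq2, limma-voom, mesenchyme covariate, fold of 1.5, acinar covariate and Y-linked covariate in this order), and 26 to 188 lower and 3 to 97 higher with a library left out. Calls among other exocytosis genes numbered 1 lower with total counts, 4 lower with the mesenchyme covariate, 0 lower and 0 higher against a fold of 1.5, with the acinar covariate and with the Y-linked one, 0 higher with no filter on low counts, and 0 to 2 lower and 0 to 1 higher with a library left out. The median log2 fold change of the members ran from -0.34 (without KO replicate 24) to -0.18 (without KO replicate 8) with a library left out, and from -0.27 to -0.17 under the other alternatives. The Syp call was kept by DESeq2, limma-voom and all 3 other scalings, and lost against a fold of 1.5 (adjusted p = 0.719) and with the acinar (log2 fold change -0.86, adjusted p = 0.0752) and Y-linked (-0.78, adjusted p = 0.176) covariates. Members whose log2 fold change turned sign were Cadps 0.039 by total counts, Scg2 0.12, Rab27b -0.30, Syt4 0.14, Syt9 0.045, Snap25 0.042, Unc13b 0.098, Cadps 0.036, Rimbp2 0.03, Synpr 0.099 by limma-voom, Rab3c 0.0028, Unc13b 0.011, Cadps 0.073, Rimbp2 0.032 with the mesenchyme covariate, Rab27b -0.15 with the acinar covariate and Rab3c 0.019, Rab27b -0.36, Doc2b 0.26, Unc13b 0.011, Cadps 0.043, Rimbp2 0.083 with the Y-linked covariate. None of these was called in either fit. With a library left out the same happened within the ranges Scg2 -0.30 to 0.0011, Rab3b -0.13 to 0.34, Rab3c -0.27 to 0.064, Rab27b -0.46 to 0.25, Syt4 -0.51 to 0.087, Syt5 -0.087 to 0.24, Syt9 -0.35 to 0.072, Doc2b -0.42 to 0.17, Stx1a -0.21 to 0.34, Stxbp2 -0.052 to 0.22, Nsf -0.23 to 0.013, Unc13b -0.17 to 0.14, Cadps -0.11 to 0.12, Cadps2 -0.53 to 0.097, Rims2 -0.12 to 0.27, Rimbp2 -0.25 to 0.11. The cause of these changes was not tested. The share of counts in the members was 1.17% in KO and 1.4% in Het when Rn45s was left out of the total.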
